A study of Caenorhabditis elegans with 3 samples.

Results

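The genes described here are 10 cuticle collagens of the nematode Caenorhabditis elegans whose mutants have an altered body shape. They are rol-6 and rol-8 (roller), sqt-1, sqt-2 and sqt-3 (squat), and dpy-5, dpy-7, dpy-9, dpy-10 and dpy-13 (dumpy). Further cuticle collagens named for body shape lie outside this list and are described below. The 10 genes were chosen with earlier results of these data known, so counts among them do not stand for all such collagens. They were taken by name, and their symbols were looked up in the annotation of the array. Of these 10 genes, 9 had a row, with 1 row each and a value on every array, out of 19513 genes or unnamed rows in the table. The gene dpy-10 matched no row in that annotation and was not analysed here. Transcripts were measured on 3 two-colour DNA microarrays, which form 1 group of replicates 1, 2 and 3. The second channel of each array held mRNA of a preparation of adult hermaphrodites whose label carries the marks TP12 and "w/ emb 3", the latter taken to mean that the adults bore embryos. The first channel held a wild-type reference described as mixed, whose make-up is not given. No genotype is given for the adults, and nothing says whether the preparations came from separate cultures, so the p-values measure the spread between arrays, which may be technical.

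The cuticle is the extracellular coat of the worm, laid down by the epidermis in the embryo and made anew at every moult. It consists mainly of small collagens, which are hydroxylated and trimerised in the epidermal cell, trimmed by proteases, secreted and then crosslinked. Transcription of many cuticle collagen genes peaks once in each moulting cycle, with some genes early and others late in the cycle. Loss or alteration of one such collagen can shorten the body (dumpy) or twist the cuticle so that the animal rolls about its long axis (roller). Mutants of the genes named squat can show either form. DPY-7, DPY-9 and DPY-10 belong to the collagens of the annular furrows, the circular grooves of the cuticle. The other body-shape collagens named above are not part of that furrow group.

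Of the 9 measured genes, 7 were lower in the adults than in the mixed reference, 0 were higher and 2 did not pass the test. The differences ran from 26.4-fold lower for rol-8 to 1.57-fold lower for dpy-7. The genes that did not pass were dpy-5 and sqt-3, with mean log2 ratios of 0.07 and 0.38. The median of the 9 means was a log2 ratio of -1.47, and that of all 19293 genes and rows tested was 0.02. The test was limma's moderated fit of the log2 ratio against 0, two-sided, with Benjamini-Hochberg adjustment over all genes tested and a threshold of 0.05. By the same rule 13.7% of all genes were lower and 14.8% were higher. Of the 9 genes, 4 had a mean of -2 or lower, a level reached by 0.814% of all genes tested. No member was higher at an unadjusted p under 0.05 either.

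No source used here says which channel is the numerator of the ratio, so "lower in the adults" rests on a likely direction. Its basis is the order of the channels in the labels together with oocyte and eggshell genes, which adults carrying embryos express. Of 8 oocyte genes 8 were on the positive side, with a median log2 ratio of 1.70, and of 11 eggshell genes 10 were, with a median of 1.20. A list of yolk genes, also made by such adults, was less clear: of 3 measured, vit-2 was on the positive side and passed. The genes vit-5 (0.15 ± 0.17) and vit-6 (0.24 ± 0.74, SD, n = 3) did not pass. The gene vit-6 stood at -0.59 in replicate 1 and passed on the positive side without that array (0.66, limma adjusted p = 0.00508). Its mean was -0.05 without replicate 2 and 0.11 without replicate 3, and it passed in neither case. The lists bear on the direction and are no evidence of their own. Under the opposite direction every "lower" below would read "higher". The arrays were centred near 0 as deposited, so all values are relative to the bulk of transcripts on the array. The part of tissue make-up in these ratios was not tested, and in whole animals fewer cells of a type and less RNA per cell cannot be told apart.

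The 2 roller collagens held the lowest ratios. ROL-8 is a cuticle collagen known from its roller mutants, and the log2 ratio of rol-8 in replicates 1, 2 and 3 came to -4.68, -5.01 and -4.47. All its values lay far below 0 and within 0.54 of each other. Its mean was -4.72 ± 0.27 (SD, n = 3), or 26.4-fold lower, with a 95% confidence interval of 20.6-fold to 33.9-fold and a limma adjusted p of 3.37e-05. It had the second lowest mean of all genes tested. ROL-6 is the collagen whose dominant allele makes worms roll and is widely used as a transformation marker. The log2 ratio of rol-6 was -4.08, -4.24 and -3.20 in replicates 1, 2 and 3, so replicate 3 was the least negative of its arrays. Its mean was -3.84 ± 0.56 (SD, n = 3), or 14.3-fold lower with an interval of 10.2-fold to 20.1-fold (limma adjusted p = 9.13e-05). The rol-8 and rol-6 values did not overlap, and rol-8 was the lower gene on every array, by 0.60, 0.77 and 1.28.

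**Figure D1:**
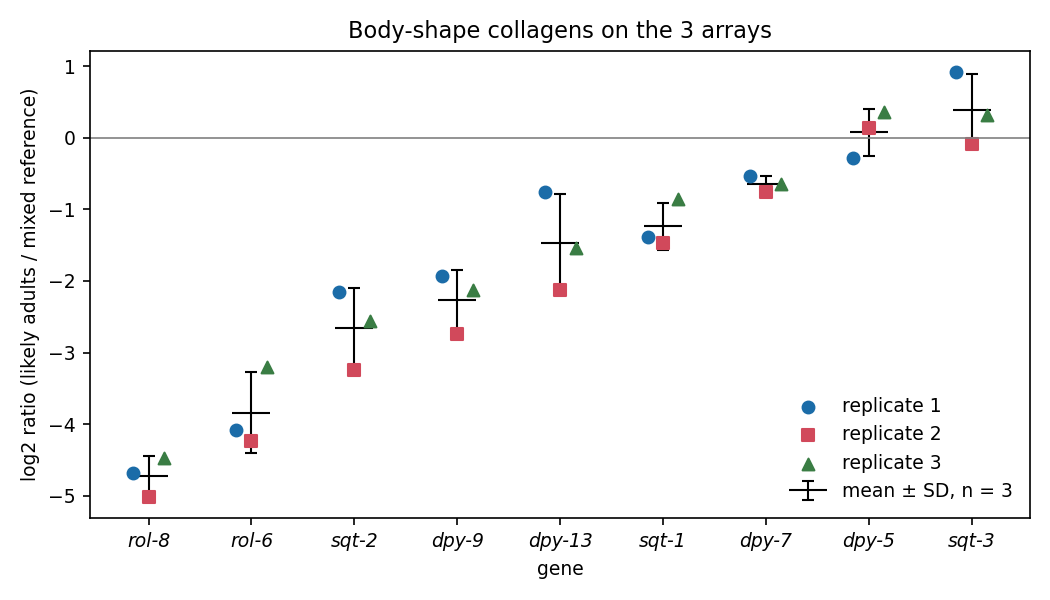
Log2 ratio of each body-shape collagen (horizontal axis, ordered by mean) on each of the 3 arrays (coloured points), with the mean and SD in black. Every value of the 7 genes from rol-8 to dpy-7 lies below 0, and the values of dpy-5 and sqt-3 lie on both sides of 0.

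The 3 squat collagens were spread over a wide range. SQT-2 is a cuticle collagen in which alleles give roller or squat animals, and sqt-2 stood at log2 ratios of -2.16, -3.24 and -2.56. Replicate 2 was the lowest of these, and the gene was negative on every array. Its mean of -2.65 ± 0.55 (SD, n = 3) was 6.28-fold lower, with an interval of 4.50-fold to 8.77-fold (limma adjusted p = 0.000219). SQT-1 is known to interact genetically with ROL-6, and its gene stood at -1.39, -1.47 and -0.86. The mean of sqt-1 was -1.24 ± 0.33 (SD, n = 3), or 2.36-fold lower (interval 1.81-fold to 3.07-fold, limma adjusted p = 0.00155). The ratio of sqt-1 lay 2.60 ± 0.23 (SD, n = 3) above that of rol-6 on the log2 scale, and the values of the 2 genes did not overlap. SQT-3 is a collagen required already in the embryo, and the protease DPY-31 is known to process it. The log2 ratio of sqt-3 reached 0.92 in replicate 1 but -0.09 in replicate 2 and 0.32 in replicate 3, so it did not keep one sign. Its mean of 0.38 ± 0.51 (SD, n = 3) did not pass (limma adjusted p = 0.20), and its 95% confidence interval ran from -0.08 to 0.84. That interval does not show that sqt-3 equalled the reference, but it leaves out a decrease of the size seen for the 7 lower genes.

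The dumpy collagens differed among themselves as well. Of the furrow collagens, dpy-9 stood at log2 ratios of -1.93, -2.74 and -2.13 in replicates 1, 2 and 3. It was far below 0 on every array, with a mean of -2.27 ± 0.42 (SD, n = 3), or 4.81-fold lower (interval 3.59-fold to 6.44-fold, limma adjusted p = 0.000230). The furrow collagen gene dpy-7, whose promoter is a standard epidermal driver, stood at -0.53, -0.76 and -0.65. Its arrays lay within 0.23 of each other, the narrowest range of the 9 genes, and its mean was -0.65 ± 0.11 (SD, n = 3), or 1.57-fold lower (interval 1.25-fold to 1.96-fold, limma adjusted p = 0.0107). The call on dpy-7 was lost without replicate 2 (-0.59, limma adjusted p = 0.0845) and without replicate 3 (-0.65, limma adjusted p = 0.0687). Its mean moved little in these fits, which rest on 2 arrays and lean more on the variance pooled over all genes. The values of dpy-9 and dpy-7 did not overlap, and dpy-9 was lower by 1.62 ± 0.32 (SD, n = 3).

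The remaining dumpy collagens, dpy-13 and dpy-5, are known from short-bodied mutants and lie outside the furrow group. The log2 ratio of dpy-13 reached only -0.76 in replicate 1, against -2.13 in replicate 2 and -1.54 in replicate 3, the widest range of the 9 genes. All its arrays were negative, and its mean of -1.47 ± 0.69 (SD, n = 3) was 2.78-fold lower (interval 1.89-fold to 4.09-fold, limma adjusted p = 0.00347). The log2 ratio of dpy-5 was -0.29, 0.14 and 0.36, with 1 array below 0 and the others above. Its mean was 0.07 ± 0.33 (SD, n = 3) and did not pass (limma adjusted p = 0.790), with a 95% confidence interval from -0.31 to 0.46. The values of dpy-5 and sqt-3 overlapped each other, and neither overlapped any of the 7 lower genes.

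The order of the genes was much the same on each array. Of 36 pairs of genes, 34 stood in the same order on all 3 arrays, and the exceptions were dpy-13 with sqt-1 and dpy-5 with sqt-3. In the order of the means from rol-8 up to sqt-3, the ranges of 5 of the 8 neighbouring pairs overlapped. The gaps without overlap were rol-8 to rol-6, sqt-1 to dpy-7 and dpy-7 to dpy-5. As a description over these 9 genes, Pearson's r between arrays was 0.948 for replicates 1 and 2, 0.948 for 1 and 3, and 0.993 for 2 and 3. The arrays share the reference and the probes, and these genes were not independent draws.

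Replicate 2 gave the most negative value for 8 of the 9 genes, dpy-5 being the exception. The medians of the 9 genes on replicates 1, 2 and 3 were -1.39, -2.13 and -1.54, while those of all genes tested were 0.01, 0.03 and 0.01. The SD of all values on an array was also highest in replicate 2, at 0.706 against 0.667 and 0.605. The median SD over arrays was 0.42 for the 9 genes and 0.24 for all genes tested. These values are given side by side, and the part of the array's spread in the lower values of replicate 2 was not tested. With the arrays scaled to one median absolute deviation the median of the 9 genes was -1.52, and 7 were lower as before.

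**Figure D2:**
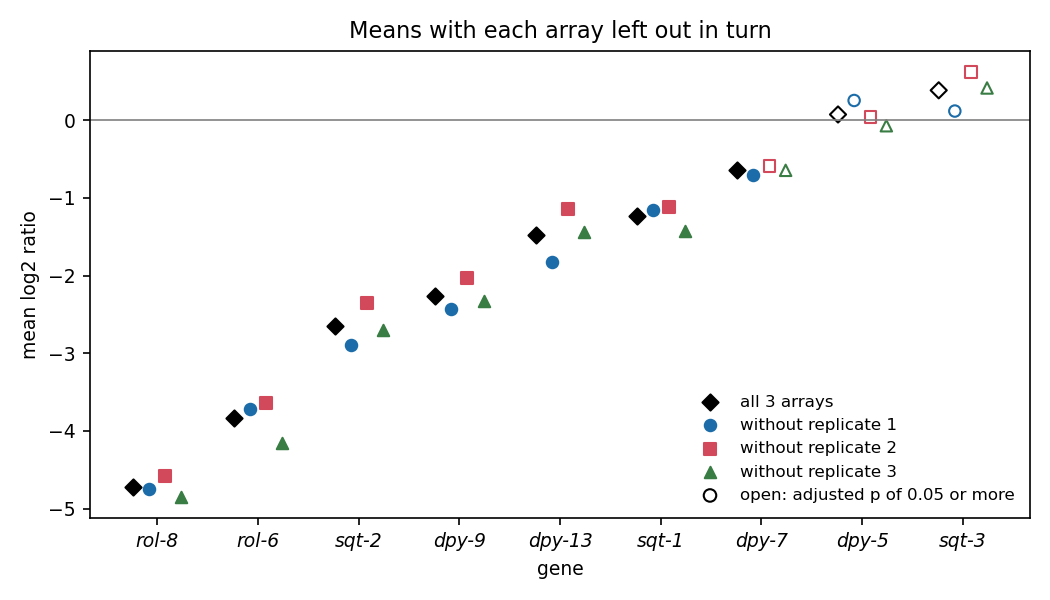
Mean log2 ratio of each body-shape collagen (horizontal axis) over all 3 arrays and with each array left out in turn. Filled symbols passed an adjusted p of 0.05 in limma; dpy-7 was the only one of the 7 lower genes that lost its call, without replicate 2 and without replicate 3.

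Among the collagen genes compared here, each with a value on every array, the body-shape genes ranged from the lowest place to places well above the middle. Collagen genes with other names were not included. The comparison set was 135 genes with a numbered col- name, taken by that name pattern after the values were known, and 8 other cuticle collagens named for body shape or blisters. Over these 152 genes with the 9 included, counted from the lowest mean, rol-8 was at place 1, rol-6 at 4, sqt-2 at 8 and dpy-9 at 14. The gene dpy-13 was at place 32, sqt-1 at 42, dpy-7 at 68, dpy-5 at 116 and sqt-3 at 130. Among the 135 col- genes 62 passed as lower and 16 as higher (45.93% and 11.85%, against 13.7% and 14.8% of all genes). The number lower among these col- genes was 52 without replicate 2 and 67 without replicate 1. Their median log2 ratio was -0.50, with 13 genes at -2 or lower. The median of the 9 body-shape genes was -1.47, with 4 at that level. Collagen genes resemble each other in sequence, so a probe may take up transcripts of relatives, and single values of either set are uncertain to that extent.

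**Figure D3:**
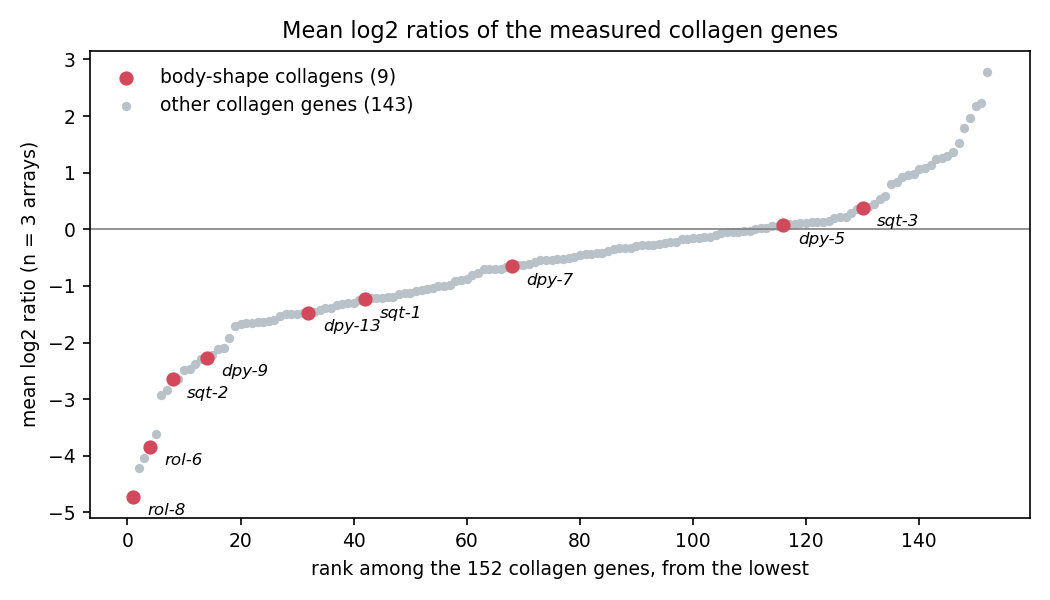
Mean log2 ratio over 3 arrays (vertical axis) of the 152 collagen genes compared, in order from the lowest, with the 9 body-shape collagens in red and named. The genes rol-8, rol-6, sqt-2 and dpy-9 lie at the low end, and the means of dpy-5 and sqt-3 lie above 0.

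Of the 8 other named cuticle collagens measured, 2 were lower, 1 was higher and 5 did not pass, or 25% and 12.5% against 13.7% and 14.8% of all genes, with a median of -0.37; without replicate 2 the lower count was 1, and with 32 blocks of rows centred it was 4. The lower ones were furrow collagens. The gene dpy-8 stood at -0.46, -2.50 and -2.03 (mean -1.66 ± 1.07, SD, n = 3, limma adjusted p = 0.00874) and was much nearer 0 in replicate 1 than in the others, so that its mean was -2.26 without replicate 1. The gene dpy-2 stood at -0.67 ± 0.22 (SD, n = 3, limma adjusted p = 0.0121) and did not pass without replicate 2 (-0.55, adjusted p = 0.111). The higher one was dpy-17, a collagen whose mutants are dumpy, with log2 ratios of 1.24, 0.77 and 1.89 (mean 1.30 ± 0.57, SD, n = 3, limma adjusted p = 0.00346). It was positive on every array. Of the 5 furrow collagens measured, dpy-9, dpy-8, dpy-2 and dpy-7 were lower and dpy-3 did not pass (-0.32 ± 0.43, SD, n = 3), with a median of -0.67. The share lower was 80%, against 13.7% of all genes. Without replicate 2 the number of lower furrow genes was 2.

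Not every collagen stood low. The gene col-19, known as an adult-specific cuticle collagen, stood at log2 ratios of 1.00, 0.32 and 1.45 (mean 0.92 ± 0.57, SD, n = 3, limma adjusted p = 0.0147), positive on every array. Without replicate 3 its mean was 0.66 with an adjusted p of 0.0663. The gene col-7, also known from adults, stood at -1.21, -0.19 and 0.63 and did not pass (-0.26 ± 0.92, SD, n = 3, limma adjusted p = 0.578).

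Enzymes that modify, trim and crosslink collagen were lower in part. Of 13 measured genes, 5 were lower, 1 was higher and 7 did not pass, with a median log2 ratio of -0.41. The shares lower and higher were 38.5% and 7.69%, against 13.7% and 14.8% of all genes. The gene phy-2, a catalytic subunit of collagen prolyl 4-hydroxylase, stood at -1.96, -2.0 and -1.63 (mean -1.86 ± 0.20, SD, n = 3, limma adjusted p = 0.000220). Its partner subunit gene dpy-18, whose mutants are dumpy, stood at 0.05, -0.67 and -0.35 and did not pass (limma adjusted p = 0.210), but passed without replicate 1 (-0.51, adjusted p = 0.0158). The protease gene dpy-31, known to act on SQT-3, stood at -0.66 ± 0.16 (SD, n = 3, limma adjusted p = 0.0112), but did not pass without replicate 2 (-0.59, 0.0877) or without replicate 3 (-0.64, 0.0716). The protein disulphide isomerase gene pdi-1 stood at 0.68 ± 0.13 (SD, n = 3, limma adjusted p = 0.00870) and did not pass without replicate 2 (0.64, 0.0592) or without replicate 3 (0.66, 0.0630).

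Genes named for body shape that encode no collagen had shares of calls near those of all genes. Of 15 measured, 3 passed as lower and 3 as higher (20% each, against 13.7% and 14.8% of all genes), with a median of 0.08; the list shares members with that of the enzymes. The lowest of the lower ones was dpy-20, a zinc finger gene, at -0.82 ± 0.29 (SD, n = 3, limma adjusted p = 0.00687). The highest was dpy-28, a subunit gene of the dosage compensation and condensin complexes, at 0.69 ± 0.10 (SD, n = 3, limma adjusted p = 0.00766). The count of lower genes was 5 without replicate 1, and the median of the list was then -0.18.

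The body-size pathway of the TGF-beta family, which acts in the epidermis and is known to regulate collagen genes, held more lower genes than higher ones. Of 10 measured genes 6 were lower, 4 did not pass and 0 were higher in limma (0 at an unadjusted p under 0.05), with a median log2 ratio of -0.62. The shares lower and higher were 60% and 0%, against 13.7% and 14.8% of all genes. The type I receptor gene sma-6 stood at -1.33, -1.27 and -1.15 (mean -1.25 ± 0.10, SD, n = 3, limma adjusted p = 0.000692). The Smad genes sma-4 and sma-2 stood at -0.93 ± 0.10 and -0.97 ± 0.18 (SD, n = 3). Without replicate 2 the lower count was 4, and without replicate 3 it was also 4; with array weights 8 were lower and 1 was higher. All 3 named genes kept an adjusted p under 0.05 with any one array left out.

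Transcription factors of the epidermis and the moulting cycle, and epidermal structure genes, stood closer to the reference. Of 9 factors 2 were lower, 7 did not pass and 0 were higher in limma (1 at an unadjusted p under 0.05), with a median of -0.28. The shares lower and higher were 22.2% and 0%, against 13.7% and 14.8% of all genes. The gene lin-29, the zinc finger factor of the larva-to-adult switch, stood at -0.79, -0.81 and -0.77 (limma adjusted p = 0.00418), and bed-3, a zinc finger factor of the moult, at -0.73 ± 0.30 (SD, n = 3, 0.0122). The epidermal GATA factor gene elt-3 stood at -0.02, -0.99 and -0.87 and did not pass (limma adjusted p = 0.0535). It passed without replicate 1 (-0.93, adjusted p = 0.000652), where the count of lower factors was 4 and that of higher ones 1. Of 12 structure genes of epidermal cells other than collagens, 3 passed as lower and 1 as higher (25% and 8.33%, against 13.7% and 14.8% of all genes). Their median was -0.08 over the arrays, and -0.11, -0.06 and -0.18 in replicates 1, 2 and 3. The lower ones were lrp-1, a megalin-like receptor gene required for moulting, at -0.95 ± 0.22, che-14, a Dispatched-related gene, at -0.66 ± 0.12, and the cell fusion gene eff-1 at -0.91 ± 0.52 (SD, n = 3). The higher one was ifb-1, an intermediate filament gene, at 0.61 ± 0.20 (SD, n = 3). Without replicate 2, che-14 did not pass (-0.61, limma adjusted p = 0.0765), and without replicate 3 neither che-14 (-0.65, 0.0643) nor ifb-1 (0.49, 0.196) did.

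**Figure D4:**
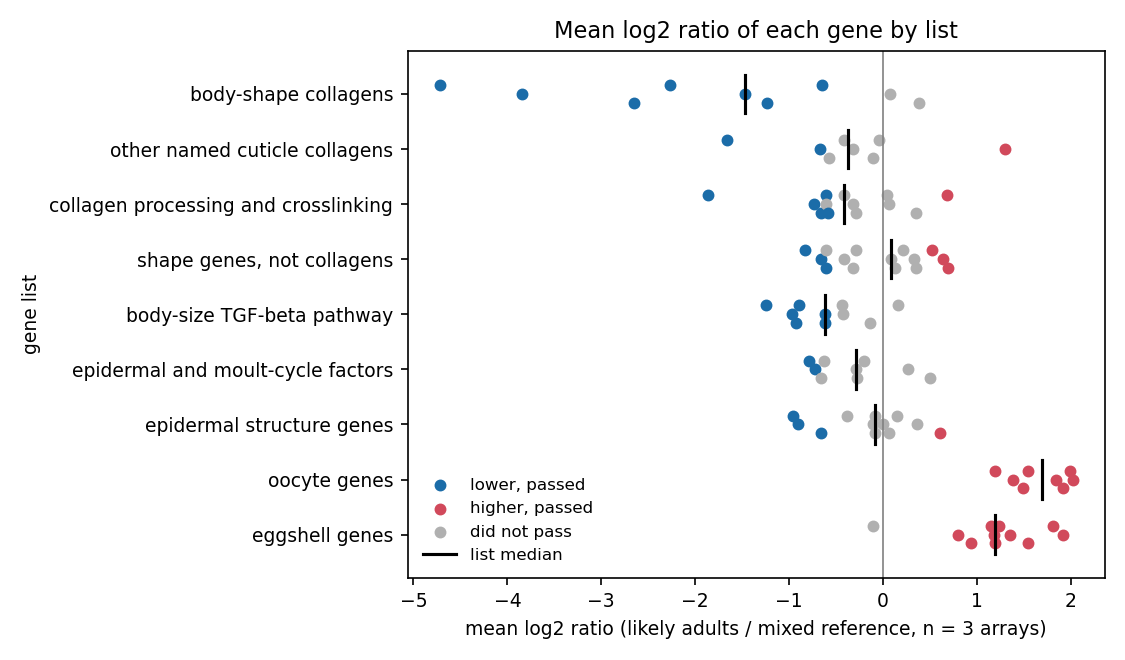
Mean log2 ratio over 3 arrays (horizontal axis) of each measured gene in 9 lists (rows), with genes that passed in limma coloured by direction and list medians as black bars. The body-shape collagens reach from -4.72 to 0.38, while the epidermal structure genes lie between -0.95 and 0.61.

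The genes outside the list whose profile over the 3 arrays was nearest to that of the member medians were twk-7, cest-29, F47B8.2, mak-1 and R10H1.1. The measure was the Euclidean distance over the 3 log2 ratios, with 15103 named genes as candidates. The distance was 0.057 for twk-7, a potassium channel gene at -1.37, -2.10 and -1.49, and 0.151 for R10H1.1, the last of these 5. None of these carries a collagen name. The nearest members to the same profile were dpy-13 at 0.628 and sqt-1 at 0.945, and the farthest was rol-8 at 5.28, so the median profile describes few of the members closely.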

How the data were processed

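Each value in the deposited table is the log2 ratio of an array's channels, and the values of each array were centred near 0 as deposited. The log base was inferred: raised from base 2, each of the 59554 values with a linear ratio under 10 fell on a multiple of 0.001, to within 0.01 of that step. No source used here names the scanner, the dyes, the background correction, the normalisation or the direction, and without spot intensities dim or saturated spots could not be set apart. Replicates 1, 2 and 3 held 19904, 19832 and 19839 values on 20000 rows, and the number of arrays limits the precision. Each preparation had an array and a date of its own, so these cannot be told apart. No column was left without a sample (0 such columns).

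A single gene symbol was given for 15655 rows by the platform annotation of 2007. Names were brought up to date with RefSeq's table for WBcel235, through gene identifiers (15569 rows) or transcript accessions (7 rows). Rows of one symbol were averaged per array, and the 19293 genes or unnamed rows measured on every array were tested against 0 in limma 3.58.1 (R 4.3.3; lmFit and eBayes, two-sided, Benjamini-Hochberg, threshold 0.05). The prior had 5.86 degrees of freedom and the fit 2. Calls rest on this moderated variance, since sign flips of 3 arrays allow no two-sided p under 0.25. The fit was checked on simulated data. Alternatives were centring and scaling of the arrays, array weights, another prior, no moderation, single rows, 32 blocks of rows centred, 2 values in place of 3, and each replicate left out. Fits with a replicate left out rest on 2 arrays, so their p-values lean more on the variance pooled over all genes. Without replicate 3 the limma adjusted p of rol-8 was 4.46e-27, against 3.37e-05 over all arrays.

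The members and lists were chosen with earlier results of these data known. All members are named. Of each other list the 3 genes with the smallest p are named, with the leading gene of the other direction, except that the oocyte, eggshell and col- lists are given by counts and medians only. The gene dpy-18, and dpy-3 of the furrow list, were singled out after their values were seen.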

Additional observations from a re-analysis of the deposited data

How the results depend on the processing

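All 7 lower body-shape collagens kept a negative mean under every one of the 11 alternatives, but most of these could not have changed the sign. Their values were negative on every array, so leaving out or weighting arrays could not turn a mean positive. Another prior, no moderation, single rows and 2 values in place of 3 left their means unchanged. Only centring, scaling and the blocks of rows could have changed a sign. The count of lower members was 7 under every alternative except leaving out replicate 2 or replicate 3, which gave 6, and the fit without moderation of the variance. That last fit, in limma with 2 degrees of freedom, called 0 members and 0 of all genes in either direction, with 6 members, 2284 lower and 2619 higher genes at an unadjusted p under 0.05. No member was higher by adjusted p under any alternative; at an unadjusted p under 0.05, dpy-5 was with array weights and sqt-3 without replicate 2. Leaving out 1 replicate moved the counts over all genes to between 1687 and 3881 lower and between 1796 and 4276 higher, and the member median to between -1.83 and -1.15. Array weights, which favoured replicate 3, gave 4413 lower and 4874 higher. The mean of dpy-5 turned to -0.021 with 32 blocks of rows centred, and ran from -0.072 (without replicate 3) to 0.253 with 1 replicate left out. The mean of col-7 turned to 0.315 with array weights, and ran from -0.701 to 0.22 (without replicate 1) with 1 replicate left out. That of vit-6 ran from -0.049 (without replicate 2) to 0.655 (without replicate 1). The cause of these changes was not tested. Each ratio already pairs the adults with the reference on the same array. No further pairing between arrays was possible because all arrays form 1 group.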
